A study of Mus musculus with 3 samples.

Results

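The Kruppel-like factors of the mouse kidney were examined on 3 single-colour Affymetrix arrays. The 10 genes were *Klf2*, *Klf3*, *Klf4*, *Klf5*, *Klf6*, *Klf9*, *Klf10*, *Klf12*, *Klf13* and *Klf15*. Every probe set whose platform annotation gave exactly 1 gene symbol, one of these 10, was taken, which gave 35 of the 45101 probe sets on the array and 10 of the 18193 genes that such probe sets name. All mice were male C57BL/6J, given as 16 weeks old. The uninephrectomy-alone group (1 array) had 1 kidney removed. The cardio-renal syndrome group (2 arrays) also had the abdominal aorta constricted, below the branching of the renal arteries, with removal of 1 kidney 2 weeks later. In both groups the remaining kidney was taken 6 weeks after the removal, so every sample shares the loss of 1 kidney. The labels list no kidney of an unoperated animal among these arrays and leave unsaid how many mice gave the RNA of an array.

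Kruppel-like factors are transcription factors that bind GC-rich and CACCC sequences through C2H2 zinc fingers near their carboxyl end. Their amino-terminal parts differ. *Klf3* and *Klf12* encode repressors that recruit CtBP, *Klf9*, *Klf10* and *Klf13* encode proteins that recruit Sin3 corepressors, and *Klf2*, *Klf4*, *Klf5* and *Klf6* mostly encode activators. In kidney, *Klf2* is known as a flow-responsive factor of endothelium, *Klf4*, *Klf6* and *Klf15* as factors that maintain podocytes, *Klf5* as a factor of the collecting duct, and *Klf9* and *Klf15* as genes induced by glucocorticoids and the circadian clock.

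The values are MAS5 signals, which are intensities on a linear scale, deposited by the authors. All differences below are log2(signal + 28.8) on a cardio-renal array minus the same on the uninephrectomy array, a scale that understates the change of dim probe sets. A probe set was kept when its mean log2 value over the arrays reached 7.02, the median of all probe sets. Of the 35 member probe sets, 27 passed, and they covered 9 of the 10 genes. *Klf5* had none. The median signal was 100.1 with uninephrectomy alone, 105.9 on cardio-renal array 1 and 102.0 on array 2. The kidney tubule markers *Lrp2*, *Slc34a1*, *Slc5a2*, *Umod*, *Slc12a1*, *Slc12a3*, *Pvalb* and *Calb1* all passed the filter. Array 1 stood apart in male-biased kidney genes, whose median difference was -2.50 in array 1 and 0.03 in array 2 over 7 genes. Markers of heart muscle were higher in both cardio-renal arrays for 8 of 8 genes, counted without the filter. Of the 11144 genes past the filter, 30.7% were higher in both, so these shares cover unlike sets of genes. The summed signal of the 8 heart markers was 209 with uninephrectomy alone, 1954 on array 1 and 1292 on array 2. Only 3 of the 8 passed the filter, *Myh6*, *Actc1* and *Myl2*. Their uninephrectomy values alone (signals of 9.93, 72.7 and 55.9) were below it, and they passed through the cardio-renal arrays. The part of the male-biased genes or the heart markers in the results below was not tested.

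The bases before a start of 5 members are shown because these genes were among those with the clearest directions or the widest gap between the cardio-renal arrays, and because the windows carry different regulatory letters. RefSeq's promoter table for GRCm38.p6 matched 8 of the 10 genes, *Klf5* and *Klf10* being the others. Each line gives the 250 bases before the transcription start that the table uses, 5′ to 3′ in the direction of transcription. For *Klf2*, *Klf6*, *Klf9* and *Klf13* that start is the end of the gene span in RefSeq's gene table. For *Klf15* it lies 1533 bases inside the span, so that its window is downstream of the outermost annotated start, and for *Klf12*, which is not shown, it lies 136095 bases inside. Capitals mark the E-box CACGTG bound by clock factors, the CRE half-site TGACG bound by CREB and ATF factors, the glucocorticoid receptor half-site AGAACA and the MEF2 site, each on either strand (CGTCA and TGTTCT are the half-sites read on the other strand).
Klf2 (GRCm38.p6, chr8:72318812-72319061, plus strand): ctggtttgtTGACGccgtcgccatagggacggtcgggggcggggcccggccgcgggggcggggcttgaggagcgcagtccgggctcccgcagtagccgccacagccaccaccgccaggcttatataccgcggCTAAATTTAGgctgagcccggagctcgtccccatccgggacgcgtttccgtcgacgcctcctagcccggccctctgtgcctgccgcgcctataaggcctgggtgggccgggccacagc
Klf6 (GRCm38.p6, chr13:5861239-5861488, plus strand): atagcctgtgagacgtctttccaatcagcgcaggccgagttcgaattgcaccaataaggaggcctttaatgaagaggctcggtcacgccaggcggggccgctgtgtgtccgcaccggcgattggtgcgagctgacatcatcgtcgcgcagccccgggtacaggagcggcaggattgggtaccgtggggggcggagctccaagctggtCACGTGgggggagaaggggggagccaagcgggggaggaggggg
Klf9 (GRCm38.p6, chr19:23140976-23141225, plus strand): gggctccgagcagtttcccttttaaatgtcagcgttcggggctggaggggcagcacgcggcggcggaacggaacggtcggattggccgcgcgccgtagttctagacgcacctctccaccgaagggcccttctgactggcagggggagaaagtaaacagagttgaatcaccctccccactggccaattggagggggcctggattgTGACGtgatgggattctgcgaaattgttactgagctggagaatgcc
Klf13 (GRCm38.p6, chr7:63938916-63939165, minus strand): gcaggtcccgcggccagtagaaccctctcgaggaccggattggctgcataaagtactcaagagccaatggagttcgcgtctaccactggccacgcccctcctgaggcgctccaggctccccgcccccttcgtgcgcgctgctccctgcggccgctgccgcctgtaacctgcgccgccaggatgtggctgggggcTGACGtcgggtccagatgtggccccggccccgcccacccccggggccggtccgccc
Klf15 (GRCm38.p6, chr6:90462326-90462575, plus strand): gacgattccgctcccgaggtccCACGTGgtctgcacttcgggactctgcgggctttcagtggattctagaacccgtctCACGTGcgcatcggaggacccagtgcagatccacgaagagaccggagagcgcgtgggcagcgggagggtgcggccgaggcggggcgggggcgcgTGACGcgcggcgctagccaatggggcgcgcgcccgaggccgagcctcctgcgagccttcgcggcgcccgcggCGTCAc

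The *Klf15* window, at this inner start, held 2 E-boxes and 2 CRE half-sites, and that of *Klf6* held 1 E-box, as did that of *Klf4*, which is not shown. Over 32851 upstream windows of the same length, 6.02% held an E-box and 17.8% a CRE half-site. A CRE half-site was also found once each in *Klf2*, *Klf4*, *Klf9*, *Klf12* and *Klf13*. The *Klf2* window held the only MEF2 match among the 8, from base -118 to base -109 counted from the start, against 2.92% of all windows. MEF2 factors are the known link from the flow-sensing kinase ERK5 to *Klf2*. No window of the 8 held a glucocorticoid receptor half-site, which 16.1% of all windows held. The GC box GGGCGG, to which the family itself and Sp1 bind, occurred in 6 of the 8 against 32.7% of windows, and the CACCC box in 6 of 8 against 52.0%. By their letters an E-box and a CRE half-site can share 2 bases, but no marked matches overlap in the windows shown. A GC box can share bases with a CACCC box, neither of which is marked. In the *Klf13* window a GC box and the CACCC box do share a base, so their counts are not of separate matches. The matches describe letters in these windows and not binding.

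*Klf10* was the member furthest from the uninephrectomy array. This gene, also called TGF-beta inducible early gene, encodes a repressor induced early by TGF-beta. The signal of its probe set, 1416029_at, was 295 with uninephrectomy alone, 509 on cardio-renal array 1 and 597 on array 2. Both cardio-renal arrays lay above the control, and the gap between them was smaller than the gap to the control. The mean difference was 0.84 ± 0.15 (SD, n = 2), and limma's fit gave a standard error of 0.21, an unadjusted p of 0.0036 and a Benjamini-Hochberg adjusted p of 0.9998. It was the one member probe set at least 1.5-fold apart in the same direction in both cardio-renal arrays (1 of 27), where 0.631% of all 22493 probe sets kept passed this rule upward and 0.365% downward (115 against 113 probe sets with equal array medians, from 142 against 82). At 2-fold the rule took 0.142% upward and 0.0533% downward of all and 0 of the 27 members. *Klf10* has 1 probe set on the array, so no second measurement of it was to be had.

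Probe sets of the other genes of the Sin3-binding subgroup, *Klf9* and *Klf13*, were mostly higher as well before array medians were set equal. The division into subgroups was added after the values were seen. *Klf9*, which encodes a repressor of cell growth and a mediator of glucocorticoid and thyroid hormone action, had 6 probe sets past the filter. All 6 were higher in both cardio-renal arrays, but only 3 were once the array medians were set equal, the other 3 then lying on opposite sides. Across all probe sets kept, 31.8% were higher in both and 29.7% lower in both, and 23.7% and 39.8% with equal medians. Probe set 1436763_a_at had signals of 1908, 3294 and 2447 on the uninephrectomy array, array 1 and array 2. Array 1 was the highest, and the mean difference was 0.57 ± 0.30 (SD, n = 2; limma unadjusted p = 0.025, adjusted p = 0.9998). Its brightest probe set, 1456341_a_at, had signals of 13306, 13583 and 16509. Here array 1 was close to the control and array 2 was the higher one, with differences of 0.03 and 0.31. Probe sets 1428288_at (8842, 8990.1 and 9959) and 1428289_at (7562, 7644 and 9147) showed the same order, with mean differences of 0.10 ± 0.10 and 0.14 ± 0.18 (SD, n = 2). The other order, with array 1 the highest, came from 1422264_s_at (1277, 1651 and 1427) and 1436952_at (464, 583 and 559), with means of 0.26 ± 0.15 and 0.28 ± 0.04. The probe sets of *Klf9* therefore share a sign but not an order of the 2 cardio-renal arrays, and their mean differences run from 0.10 to 0.57.

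*Klf13*, whose protein activates the chemokine RANTES in T cells, had 2 probe sets past the filter, and these differed. Probe set 1436316_at had signals of 413 with uninephrectomy alone, 600.0 on array 1 and 575 on array 2. Both cardio-renal arrays lay above the control and close to each other, at 0.48 ± 0.04 (SD, n = 2; limma unadjusted p = 0.037, adjusted p = 0.9998). Probe set 1432543_a_at had signals of 322, 379 and 314, so that the control lay between the cardio-renal arrays. The third, 1456030_at, was dim, with signals of 9.48, 32.2 and 11.2.

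**Figure D1:**
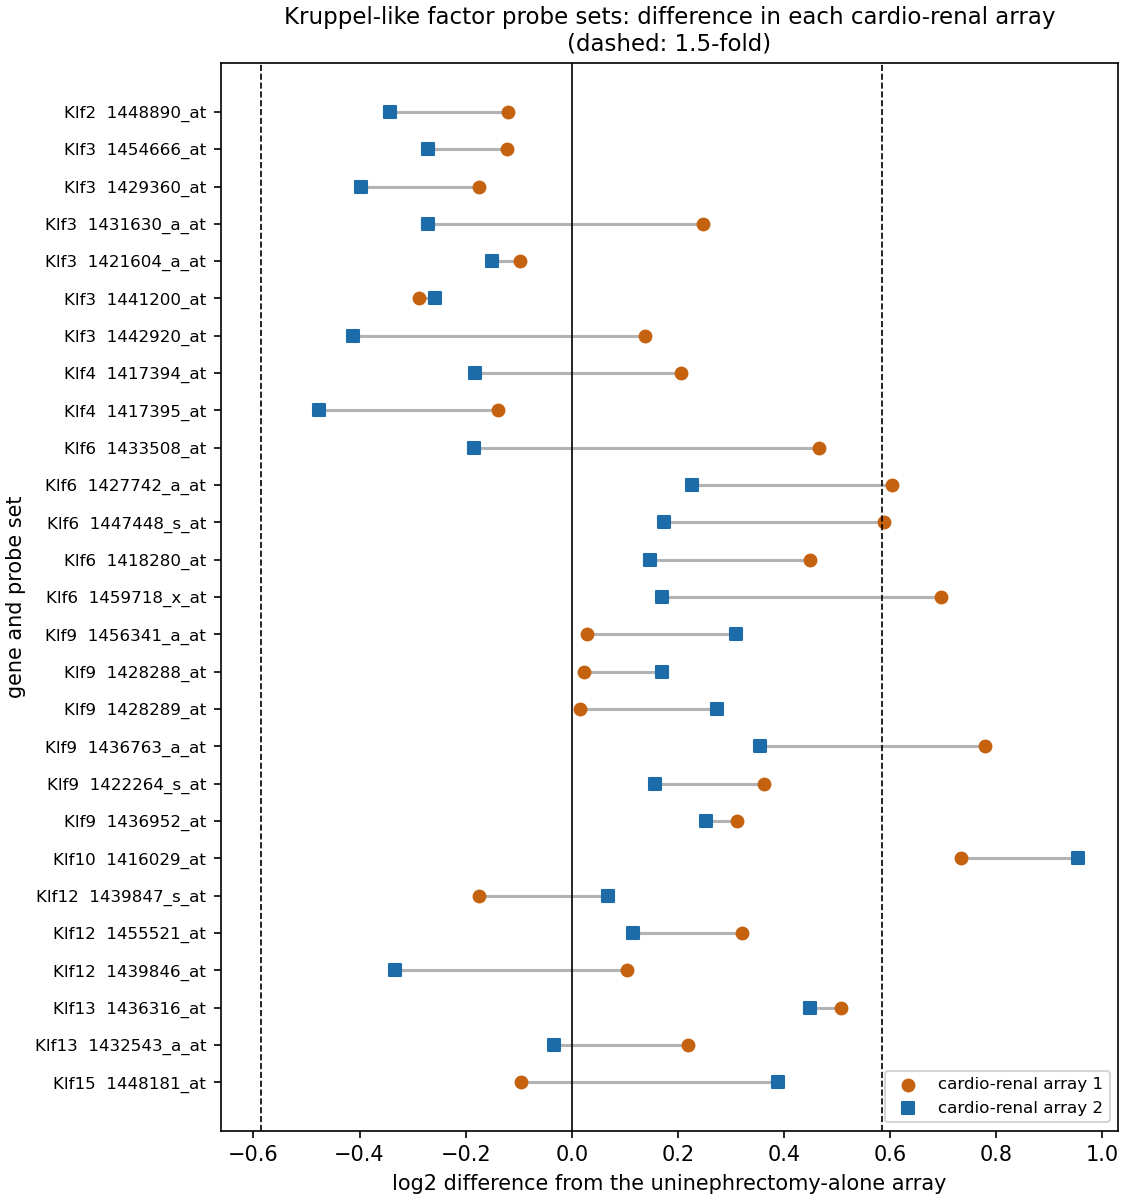
Difference of each of the 27 member probe sets past the filter from the uninephrectomy-alone array, on the log2(signal + 28.8) scale (horizontal axis), for cardio-renal array 1 (circles) and array 2 (squares), with dashed lines at 1.5-fold. *Klf10* is the one row with both points past a dashed line, and the 5 rows of *Klf6* have array 1 to the right of array 2.

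Of the activator genes, *Klf6* had 5 probe sets past the filter. It encodes a factor induced by injury that supports mitochondrial function in podocytes. All 5 of its probe sets were higher on array 1 than on array 2, and 4 of the 5 were higher than the control on both, under quantile normalization and with equal array medians too. Probe set 1427742_a_at had signals of 536, 830 and 633 on the uninephrectomy array, array 1 and array 2, and 1447448_s_at had 402, 620.1 and 457. On both, array 2 lay between the control and array 1, and only array 1 was past 1.5-fold, at 0.60 and 0.59. The third probe set past 1.5-fold on array 1 was 1459718_x_at, with signals of 79.0, 145.9 and 92.5. Its ID marks a probe set that may cross-hybridise, and its uninephrectomy value alone was below the filter, which it passed through the cardio-renal arrays. Without it, 3 of 4 *Klf6* probe sets were higher on both. Probe set 1418280_at had signals of 204, 289.7 and 229, and 1433508_at had 925, 1289.6 and 811, the one on which array 2 lay below the control. Mean differences ran from 0.14 to 0.43 (0.42 without 1459718_x_at), and the largest SD was 0.46 (n = 2). Without array 1 none of these probe sets was past 1.5-fold, since the differences of array 2 ran from -0.18 to 0.23. The male-biased genes that were low on array 1 stood beside this pattern (*Slco1a1*, an androgen-dependent transporter, had signals of 6161, 22.5 and 6064), and their part in it was not tested.

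*Klf2* and *Klf4* were lower or split. *Klf2* holds endothelium in a quiescent, anticoagulant state. Its single probe set, 1448890_at, had signals of 564 with uninephrectomy alone, 517 on array 1 and 439 on array 2. Both cardio-renal arrays were below the control, by a mean difference of -0.23 ± 0.16 (SD, n = 2), and limma gave an unadjusted p of 0.29. *Klf4*, a pluripotency factor that also limits inflammation in endothelium and albumin loss in podocytes, was read by 2 probe sets made against the same sequence record. Probe set 1417395_at had signals of 325, 292 and 225, below the control on both cardio-renal arrays at -0.31 ± 0.24 (SD, n = 2). Probe set 1417394_at had signals of 459, 534 and 401, with the control between them. Both probe sets had array 2 below array 1. *Klf5*, a factor of epithelial growth, had 3 probe sets, none past the filter, with signals of 89.2, 113 and 98.2 (1451021_a_at), 74.7, 108.5 and 95.8 (1451739_at), and 24.6, 8.42 and 30.3 (1430255_at). The brighter pair was higher on both cardio-renal arrays and the dimmest was not.

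Of the CtBP-binding repressors, *Klf3* was mostly lower and *Klf12* had no shared direction. *Klf3*, a repressor of adipocyte and B cell genes, had 6 probe sets past the filter, of which 4 were lower in both cardio-renal arrays, 0 higher in both and 2 on opposite sides, under quantile normalization and equal array medians too. Its brightest, 1454666_at, had signals of 2924, 2686 and 2417, and the next, 1429360_at, 933, 823 and 701. Array 2 was the lowest of the 3 on both, and the mean differences were -0.20 ± 0.11 and -0.29 ± 0.16 (SD, n = 2). Probe sets 1441200_at (166.6, 131.1 and 134.6) and 1421604_a_at (430.2, 400.1 and 385) were also lower on both, at -0.27 ± 0.02 and -0.12 ± 0.04. The probe sets on opposite sides were 1431630_a_at (517, 620.1 and 424) and 1442920_at (121.3, 136 and 83.9), both higher than the control on array 1 and lower on array 2. None of the *Klf3* probe sets had a limma unadjusted p under 0.05, and the lowest was 0.17. The last, 1458487_at, was dim on all arrays, between 4.33 and 4.46. *Klf12* encodes a repressor first known for acting on the AP-2 alpha gene. Probe set 1439847_s_at had signals of 1069.6, 944 and 1122.5, 1455521_at had 603, 761 and 656, and 1439846_at had 253, 274 and 195. Only the second of these was higher than the control on both cardio-renal arrays, at 0.22 ± 0.15 (SD, n = 2). The dim probe sets 1422227_at (30.9, 23.4 and 11.98) and 1441040_at (5.78, 5.90 and 6.07) did not pass the filter.

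*Klf15*, which drives amino acid catabolism and gluconeogenesis and is induced by glucocorticoids, had the control between the cardio-renal arrays. Its 1 probe set, 1448181_at, had signals of 1819 with uninephrectomy alone, 1699.8 on array 1 and 2389 on array 2. Array 1 was slightly below the control and array 2 above it, at -0.10 and 0.39, a mean of 0.15 ± 0.34 (SD, n = 2). The SD exceeded the mean.

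**Figure D2:**
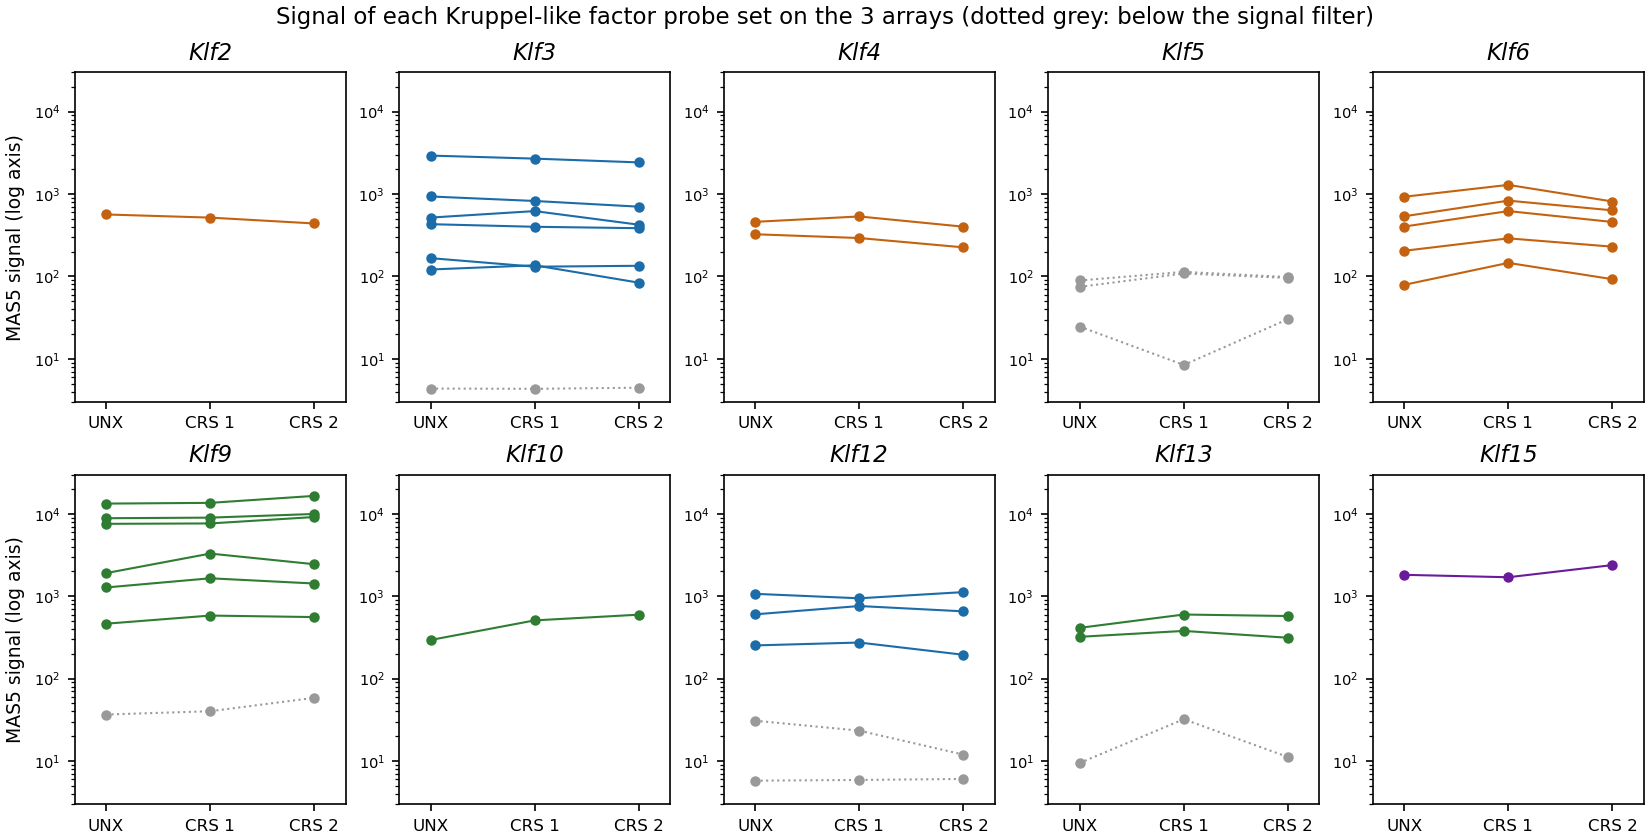
MAS5 signal (vertical log axis) of each probe set of the 10 genes on the uninephrectomy-alone array (UNX) and on cardio-renal arrays 1 and 2 (CRS 1, CRS 2). Each line joins the values of 1 probe set, and dotted grey lines are the 8 probe sets below the filter. *Klf10* goes from 295 to 509 and 597, whereas *Klf3* lines slope down or cross and *Klf6* lines peak on array 1.

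Over the 27 member probe sets past the filter, 13 were higher than the control on both cardio-renal arrays, 6 lower on both and 8 on opposite sides, against 31.8% higher, 29.7% lower and 38.5% on opposite sides of all probe sets kept. With equal array medians the members' counts were 10 higher and 6 lower. The median difference was 0.21 in array 1 and 0.12 in array 2, beside 0.02 and -0.01 over all 22493. Read by 1 probe set per gene, the one with the highest mean, 3 of the 9 genes past the filter were higher on both (*Klf9*, *Klf10* and *Klf13*) and 2 lower (*Klf2* and *Klf3*), with medians of 0.03 and 0.07, beside 30.7% higher, 29.7% lower and medians of 0.01 and -0.003 over all 11144 genes read in this way. *Klf6* and *Klf9* supply 10 of the 13 higher probe sets. By the family's subgroups, a division added after the values were seen, 8 of 9 probe sets of *Klf9*, *Klf10* and *Klf13* were higher on both and 0 lower (5 higher with equal array medians), 4 of 8 of *Klf2*, *Klf4* and *Klf6* were higher and 2 lower, and 1 of 9 of *Klf3* and *Klf12* was higher and 4 lower. Probe sets of a gene read the same transcripts and are not independent, and the 2 cardio-renal arrays share their control, so a value of that control alone gives both differences a common sign. One member, *Klf6* 1459718_x_at, was below the filter with uninephrectomy alone, and the 26 others had 12 higher and 6 lower. On array 1, 5 of the 27 (4 of those 26) were at least 1.5-fold apart, against 5.15% of all probe sets kept. On array 2 it was 1, against 3.48%. The members were higher on array 1 than on array 2 for 20 of 27 probe sets, where 55.1% of all were.

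**Figure D3:**
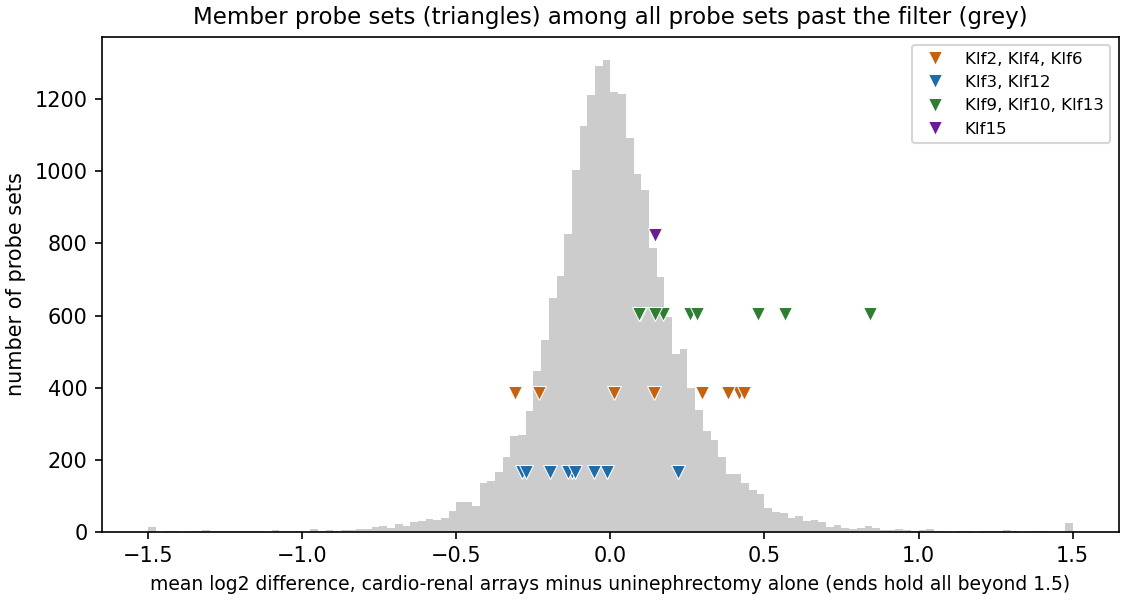
Number of probe sets (vertical axis) by mean log2 difference of the 2 cardio-renal arrays from the uninephrectomy-alone array for all 22493 probe sets kept (grey), with each member probe set as a triangle, coloured by subgroup and set at an arbitrary height. Triangles of *Klf9*, *Klf10* and *Klf13* lie between 0.09 and 0.84, and those of *Klf3* and *Klf12* between -0.29 and 0.22.

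With limma and Benjamini-Hochberg adjustment at 0.05, 0 of the 22493 probe sets passed (0%). The unadjusted p was under 0.05 for 625 of them, or 2.78%. Among the members 0 passed and 3 had an unadjusted p under 0.05, which were those of *Klf10*, *Klf9* and *Klf13* named above. Only the cardio-renal pair gives a spread, so there was 1 residual degree of freedom, and the lone control is taken to vary like that pair. For any single probe set the smallest p of an exact permutation test with 1 array against 2 is 0.333.

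Other members of the wider family were read by 1 probe set per gene, the one with the highest mean. Of 16 other Kruppel-like and Sp genes, 13 had a probe set and 9 passed the filter, with 3 higher on both cardio-renal arrays, 0 lower and 0 past 1.5-fold, and medians of 0.12 and 0.05. Over all 11144 genes, 30.7% were higher on both and 29.7% lower, and 0.511% passed the 1.5-fold rule upward and 0.35% downward. The 3 were *Klf11*, *Klf1* and *Sp4*. *Klf11*, the closest relative of *Klf10* and a second TGF-beta inducible gene, had signals of 417, 534 and 669.7 on the uninephrectomy array, array 1 and array 2. As for *Klf10*, both cardio-renal arrays lay above the control and array 2 was the highest, at 0.49 ± 0.22 (SD, n = 2). *Klf1*, the erythroid factor, had 156, 195 and 181, and *Sp4*, abundant in neurons, 147, 238 and 157. *Sp1*, the broadly expressed activator, had 2124, 2104 and 2235, with the control between the others.

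Transcripts of the cofactors through which the family acts were mixed. Of 13 cofactors and ubiquitin ligases, all past the filter, 2 were higher on both and 6 lower, none by 1.5-fold, with medians of -0.02 and -0.09, where 29.7% of all genes were lower. The acetyltransferase *Crebbp* had signals of 1833, 1416 and 1606, and *Kat2a* and *Kat2b*, which also encode acetyltransferases, stood at -0.18 ± 0.12 and -0.23 ± 0.26 (SD, n = 2). The corepressor *Sin3b* stood at -0.07 ± 0.02. Upstream of *Klf2* and *Klf4*, 9 of 10 kinases, MEF2 factors and cerebral cavernous malformation genes passed the filter, with 2 higher and 4 lower, none by 1.5-fold, and medians of 0.005 and -0.12. *Mef2c* had signals of 355, 327 and 264, below the control on both cardio-renal arrays as *Klf2* was. *Mef2d* and the adaptor *Ccm2* stood at -0.11 ± 0.03 and -0.13 ± 0.02, and *Heg1*, a receptor of the same complex, at 0.26 ± 0.06 (SD, n = 2).

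Endothelial targets of *Klf2* and *Klf4* were split. Of 11 genes, 8 passed the filter, with 2 higher, 2 lower and none past 1.5-fold, and medians of 0.02 and -0.13. Of all 11144 genes, 30.7% were higher and 29.7% lower. *Edn1*, the endothelin gene repressed by *Klf2*, had signals of 155, 124.3 and 108.4, lower on both cardio-renal arrays. *Thbd*, the anticoagulant receptor activated by *Klf2*, had 654, 647 and 650.1, a difference of -0.01 ± 0.003. *Vcam1*, a leukocyte adhesion molecule, and *Tek*, the angiopoietin receptor, stood at 0.05 ± 0.03 and 0.17 ± 0.11 (SD, n = 2). Endothelial markers, 10 genes all past the filter, had a summed signal of 10620.4 with uninephrectomy alone, 10779.9 on array 1 and 9723 on array 2. Their medians were 0.10 and -0.05. Higher on both were 4, *Eng* at 0.21 ± 0.17, *Tek* as above, *Pecam1* at 0.08 ± 0.03 and *Flt1* at 0.05 ± 0.08 (SD, n = 2). Lower on both were 2, *Kdr* at -0.13 ± 0.05 and *Plvap* at -0.31 ± 0.12. In RNA of whole kidney, fewer cells of a type and less RNA per cell cannot be told apart. Podocyte markers (6 of 8 genes past the filter) had 1 higher on both, 0 lower and medians of 0.11 and -0.01. Collecting duct markers (8 of 8) were split, with 3 higher on both, 3 lower and medians of 0.14 and -0.04. The higher ones were *Aqp4* at 0.87 ± 0.48, *Scnn1b* at 0.58 ± 0.20 and *Rhcg* at 0.44 ± 0.07 (SD, n = 2). The lower ones were *Aqp2* at -0.18 ± 0.03, *Aqp3* at -0.15 ± 0.12 and *Scnn1g* at -0.15 ± 0.04.

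Genes that respond to glucocorticoids, as *Klf9* and *Klf15* do, were read next. Of 13, all past the filter, 8 were higher on both cardio-renal arrays and 2 lower. Over all 11144 genes the shares were 30.7% and 29.7%. At least 1.5-fold higher were 2 of the 13, beside 0.511% of all genes, and the medians were 0.40 and 0.19. *Zbtb16*, a zinc-finger factor, had signals of 167, 441 and 844, and *Pdk4*, the kinase that shuts off pyruvate oxidation in fasting, 927, 1693 and 3702. Both were highest on array 2, as were *Cdkn1a*, a cell cycle inhibitor, with 292, 405 and 594, and *Klf15* itself. The order was not that of the list as a whole, whose median was higher on array 1. *Tsc22d3*, which encodes the glucocorticoid-induced leucine zipper, had 1983, 2751 and 2679, highest on array 1, at 0.45 ± 0.03 (SD, n = 2). *Nr3c1*, the glucocorticoid receptor gene, had 1948, 2265 and 1709, with the control between, and *Nr3c2*, the mineralocorticoid receptor gene, 290.0, 377 and 329. *Hsd11b1*, whose enzyme regenerates active glucocorticoid, had 6379, 2727 and 5391, lowest on array 1. *Zbtb16*, *Pdk4* and *Cdkn1a* were known from earlier results of these data to be high when the list was drawn up. Without these 3, a count added after the values were seen, 5 of 10 were higher on both and 2 lower, 0 by 1.5-fold, with medians of 0.18 and 0.05.

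Metabolic targets of *Klf15* had 8 of 11 genes higher on both cardio-renal arrays and 1 lower, all 11 past the filter. Over all 11144 genes the shares were 30.7% and 29.7%. The medians were 0.11 and 0.14. Equal array medians moved the median difference of all probe sets by -0.08 on array 1 and -0.03 on array 2. *Bckdha* and *Acss2*, both at 0.03 on array 1, counted as higher by less than that shift. The counts of this list and the other lists were not redone under that scaling. Where 0.511% of all genes were at least 1.5-fold higher, 1 of the 11 was. That 1 was *Pck1*, the gluconeogenic enzyme gene, with signals of 6364, 12850 and 10155, a mean difference of 0.84 ± 0.24 (SD, n = 2). *Gpt*, alanine aminotransferase, had 247, 339 and 356, and the insulin-regulated glucose transporter *Slc2a4* had 499, 561 and 753. *G6pc*, the last enzyme of gluconeogenesis, had 9200.1, 10308 and 14366. On *G6pc* and *Slc2a4*, array 2 was the highest, as on *Klf15*, whereas *Pck1* was highest on array 1.

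Circadian genes had 7 of 15 kept genes higher on both cardio-renal arrays and 5 lower, beside 30.7% and 29.7% of all genes. None was past 1.5-fold in both, and the medians were 0.21 and 0.02. *Bhlhe40*, a repressor of the clock, had signals of 1690.0, 2928 and 2531, and *Tef*, an output factor, 1923, 2563 and 2378. *Cry2*, a core repressor, had 170.1, 105.5 and 144.9, and *Per2* stood at 0.20 ± 0.06 (SD, n = 2). *Dbp*, named after its values were seen, had 471, 1440.2 and 465, high on array 1 alone. Immediate early genes, with which *Klf2*, *Klf4*, *Klf6* and *Klf10* share rapid induction, had 9 of 16 lower on both cardio-renal arrays and 4 higher. Of all genes, 29.7% were lower and 30.7% higher. At least 1.5-fold lower were 3 of the 16, beside 0.35% of all genes, and 0 were at least 1.5-fold higher. The medians were -0.14 and -0.38. The 3 were *Ccn1*, a matricellular protein gene (2391, 778 and 672), the AP-1 gene *Fos* (564, 260.1 and 171) and the orphan receptor gene *Nr4a1* (524, 333 and 208). *Zfp36*, whose protein destabilises mRNA, had 1559, 1122 and 1197. *Klf2* and 1 of 2 *Klf4* probe sets were lower on both cardio-renal arrays like these genes, the other *Klf4* probe set lying on opposite sides. *Klf10* and 4 of 5 *Klf6* probe sets were higher on both, as were 4 of the 16 immediate early genes. None of the genes in these lists passed limma's adjusted p.

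**Figure D4:**
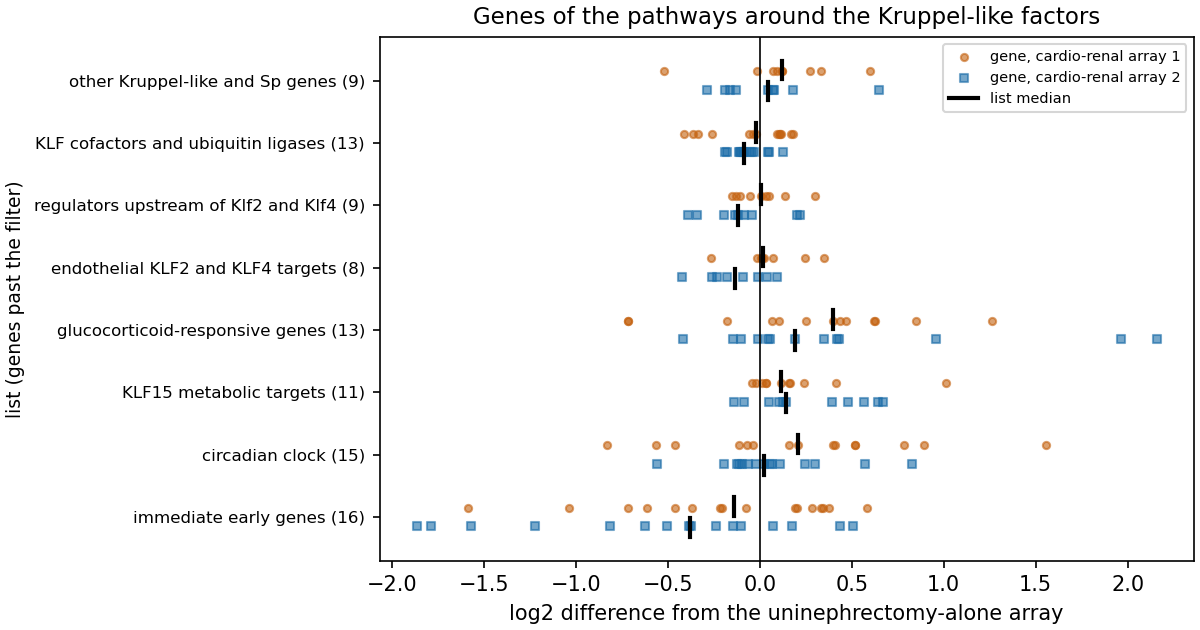
Log2 difference from the uninephrectomy-alone array (horizontal axis) of each gene past the filter in 8 lists around the family, on cardio-renal array 1 (circles) and array 2 (squares), with the list median as a black bar. The medians of glucocorticoid-responsive genes are 0.40 and 0.19 and those of immediate early genes -0.14 and -0.38. Without *Zbtb16*, *Pdk4* and *Cdkn1a*, known to be high when the list was drawn up, the glucocorticoid-responsive medians are 0.18 and 0.05.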

How the data were processed

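The authors deposited 1 table of MAS5 signals (intensities, linear scale) for 3 arrays of kidney RNA. Per the labels' protocols, 250 ng of total RNA was labelled with a 3' in vitro transcription kit, which reads transcript ends. The submitters' processing notes name MAS5 without a version. With 2% trimmed from either end, the mean signal was 500.0 on all 3 arrays, so they were left as scaled. MAS5 subtracts the signal of mismatch probes, dim probe sets are noisy for that reason, and no detection calls were used. The number of arrays limits the precision.

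The platform's annotation named the probe sets, and for the other lists symbols were updated through the Entrez ID in RefSeq's GRCm38.p6 gene table. Of 45037 probe sets other than controls, 34945 had 1 symbol, 932 had several and 9160 were unnamed here. The offset of 28.8 is the middle of the 3 arrays' 25th percentiles, and 22493 probe sets were kept. Differences were tested in R 4.3.3 by limma 3.58.1 (lmFit, eBayes with a trend, two-sided, Benjamini-Hochberg at 0.05). On simulated data, with noise drawn from the cardio-renal pair for all arrays, the fit was checked for the sign and size of large changes. That check did not cover its p-values. P-values reflect the spread of these samples alone, which may be technical. The 1.5-fold rule is a description.

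All members are named. Each list gave up to 4 names, ranked by the smaller absolute difference of the 2 arrays among kept genes with 1 sign in both. Marker genes, *Sp1*, *Nr3c1*, *Dbp* and *Slco1a1* are further names. Patterns were not ranked by likeness, since 3 arrays give each gene 2 differences. The members and lists were chosen with earlier results of these data known.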

Additional observations from a re-analysis of the deposited data

How the results depend on the processing

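Among the members, the count at least 1.5-fold higher on both cardio-renal arrays was 1 (*Klf10*) under the offsets of 1 and 100, without the filter, under both scalings and under the 3 choices of probe sets. It was 0 at 2-fold and 0 among the upper quartile of probe sets, which leaves out *Klf10* and keeps 17 member probe sets. Without each cardio-renal array in turn it ran from 1 (without array 1) to 5 (without array 2), and the count lower was 0 under every alternative run. Leaving out the member whose uninephrectomy value alone was below the filter, chosen after seeing the data, also gave 1 and 0. Over all probe sets the counts higher and lower, 142 and 82, became 229 and 124 with an offset of 1, 66 and 47 with 100, 1044 and 687 without the filter, 25 and 29 in the upper quartile, 57 and 39 with 1 probe set per gene, 35 and 32 with a gene's mean, 115 and 113 with equal array medians, and 32 and 12 at 2-fold. The count lower was 54 without probe sets of shared sequence. Without each cardio-renal array in turn the count higher ran from 348 to 676 and the count lower from 434 to 483, since 1 array then decides.

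The limma count at an adjusted p under 0.05 was 0 in both directions except without probe sets of shared sequence, where 3 were higher, *Actc1*, *Myh6* and the unnamed 1460710_at, none a member. The uninephrectomy values of these 3 alone (signals of 72.7, 9.93 and 41.3) were below the filter, which they passed through the cardio-renal arrays. The adjusted p of *Klf10* was 0.875 without probe sets of shared sequence and at least 0.9997 in the other fits with a trend that kept it, and its difference from 0.72 to 0.95 over all. Under other offsets, scalings and gene means, 108 of 117 member differences moved by less than 1 SD of the cardio-renal pair and 9 by more. Leaving out a cardio-renal array changed the sign of 8 of 27 member probe sets. That of *Klf4* 1417394_at, which had no shared direction, also turned with equal array medians and with the gene's mean. No paired analysis was possible because the groups share no replicate numbers in the labels and 1 has a single array.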
